A study of Mus musculus with 22 samples.

Results

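The genes described here are 10 transcription factors linked to choroid plexus (ChP) identity: *Otx2*, *Otx1*, *Lmx1a*, *Lmx1b*, *Msx1*, *Msx2*, *Foxj1*, *Rfx3*, *Zbtb20* and *Sox2*. They were chosen by name, with earlier results of these data known, and they are 10 of the 33984 genes with a transcript in the count tables. Counts of members that passed therefore describe the set and do not test it. The most counted transcript of a gene, over all libraries together, stood for it.

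The libraries were made from ChP of 3-month-old mice of both sexes, in 7 groups of 2 pools (A and B). The first model was the *Otx2* lox/lox mouse (strain label S129). Cre-Tat protein (label Cre) or vehicle (label Veh) was injected into the lateral ventricles, and ChP of the lateral ventricles (LV) and of the fourth ventricle (4V) was taken apart 15 days later, from pools of 5 mice for Cre-Tat and 4 mice for vehicle. All 4 of these groups carry the floxed alleles. Cre-Tat enters cells from the cerebrospinal fluid, so recombination is not driven by a cell type promoter. The second model (strain label B6D2) gave 4V ChP alone, from pools of 4 heterozygotes with a GFP allele (label Otx2 (+/-)) and pools of 5 wildtype littermates (label WT). Another group of that model has the label Otx2 (+/AA); the AA allele and its pool size are not described in the sources used here. The 2 models were sequenced in separate runs and differ in strain, so a difference in level between them cannot be told apart from a difference between runs.

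The ChP is a folded epithelium over a vascular stroma, which secretes cerebrospinal fluid into the ventricles. It forms from the dorsal midline of the brain, where roof plate and BMP signals induce LMX1A, LMX1B, MSX1 and MSX2, which are all homeodomain proteins. OTX2 is the homeodomain protein most closely tied to this tissue, and mice without it during development form little or no ChP. FOXJ1 and RFX3 switch on genes for motile cilia, which ChP cells carry in tufts. ZBTB20 is a zinc finger repressor known from hippocampus, liver and pituitary, and SOX2 is an HMG-box factor of neural progenitors and ependyma.

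The sequence below is the exon of *Otx2* that codes for most of its homeodomain, shown because a stretch of it separates transcripts whose counts moved differently. The exon lies at chr14:48661299-48661450 of GRCm38 on the minus strand and has 152 bases. Capitals mark the 59 bases (chr14:48661299-48661357) that are part of transcript *Otx2-207* and not of *Otx2-205*.
Otx2 homeobox exon: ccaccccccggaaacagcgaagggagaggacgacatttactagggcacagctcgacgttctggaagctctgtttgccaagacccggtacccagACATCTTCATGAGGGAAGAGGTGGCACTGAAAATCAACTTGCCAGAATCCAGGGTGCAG
RefSeq promoter windows (250 bases before to 50 bases after a start, GRCm38.p6) were found for 8 of the 10 factors, as 11 windows. The letters TAATCC, the core that OTX-class homeodomains bind, or their reverse GGATTA were searched on both strands and were present in 1 of the 11 windows. That window is at an *Otx2* start itself, chr14:48665060-48665359, minus strand. Of 32851 windows of the same length over all genes, 7.06% hold these letters. The match, in capitals, is a description of letters and not of a bound site.
Otx2 promoter window: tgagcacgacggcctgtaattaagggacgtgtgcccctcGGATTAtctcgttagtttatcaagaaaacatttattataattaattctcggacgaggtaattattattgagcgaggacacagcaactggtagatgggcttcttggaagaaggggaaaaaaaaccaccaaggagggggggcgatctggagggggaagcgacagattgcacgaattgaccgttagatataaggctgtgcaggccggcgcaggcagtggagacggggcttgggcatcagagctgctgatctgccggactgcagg

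Pool totals ranged from 22750019 to 50088408 counts, and the 2 pools of a group limit how precisely their spread is known. The files of the first model were joined to samples by the library number that both carry. As attached, 14 of the 16 files belong to another library number, and 12 of them to another group. Runs with the same number differed by sampling noise only (chi-square 1.005 to 1.036 times its degrees of freedom), while files attached to the same pool differed by 22.78 to 40.83 times. Under the attached grouping, *Otx2* differed by -0.01 (LV) and -0.29 (4V) on the log2 scale between Cre-Tat and vehicle, so the results for the first model rest on the join by number. The second model has no such conflict. Dissection matched the labels in vehicle pools. *Emx2*, a forebrain gene, had 98 and 107 counts in vehicle LV pools and 0 in vehicle 4V pools. *Hoxb2*, a hindbrain gene, had 0 in vehicle LV and 14 in each vehicle 4V pool. In Cre-Tat pools *Emx2* had 131 and 124 counts in LV and a trace of 5 and 4 in 4V ChP. There *Hoxb2* had 0 in LV and 22 and 29 in 4V ChP. All 10 epithelial markers had counts in every group. Their summed level was 222439.6 and 231701.4 normalised CPM (counts scaled to the size of the library) in vehicle LV pools. Of this, *Ttr* alone had 177653.3 and 185421.5.

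In control pools, the factors covered a wide range of levels when expressed per kb of transcript, the only scale on which genes are compared with each other here. *Otx2* was the highest, with 199 ± 27.7 (SD, n = 2) normalised CPM per kb in vehicle LV ChP, 182 ± 2.46 in vehicle 4V ChP and 155 ± 19.2 in WT 4V ChP. It was above 99.2% of the genes with counts in vehicle 4V and WT 4V pools, and above 99.3% in vehicle LV pools. *Msx1* came next in all 3 control groups, with 70.8 ± 7.1, 62.7 ± 1.82 and 80.8 ± 11.9. *Foxj1* had 30.9 ± 2.46 in vehicle LV and 66.1 ± 5.09 in WT 4V ChP. *Zbtb20*, *Lmx1a*, *Rfx3* and *Sox2* lay between 12.6 and 35.5 in the control groups. *Msx2* (1.33 to 2.96), *Otx1* and *Lmx1b* were near the bottom, and the last 2 were present in one ventricle and nearly absent in the other.

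**Figure D1:**
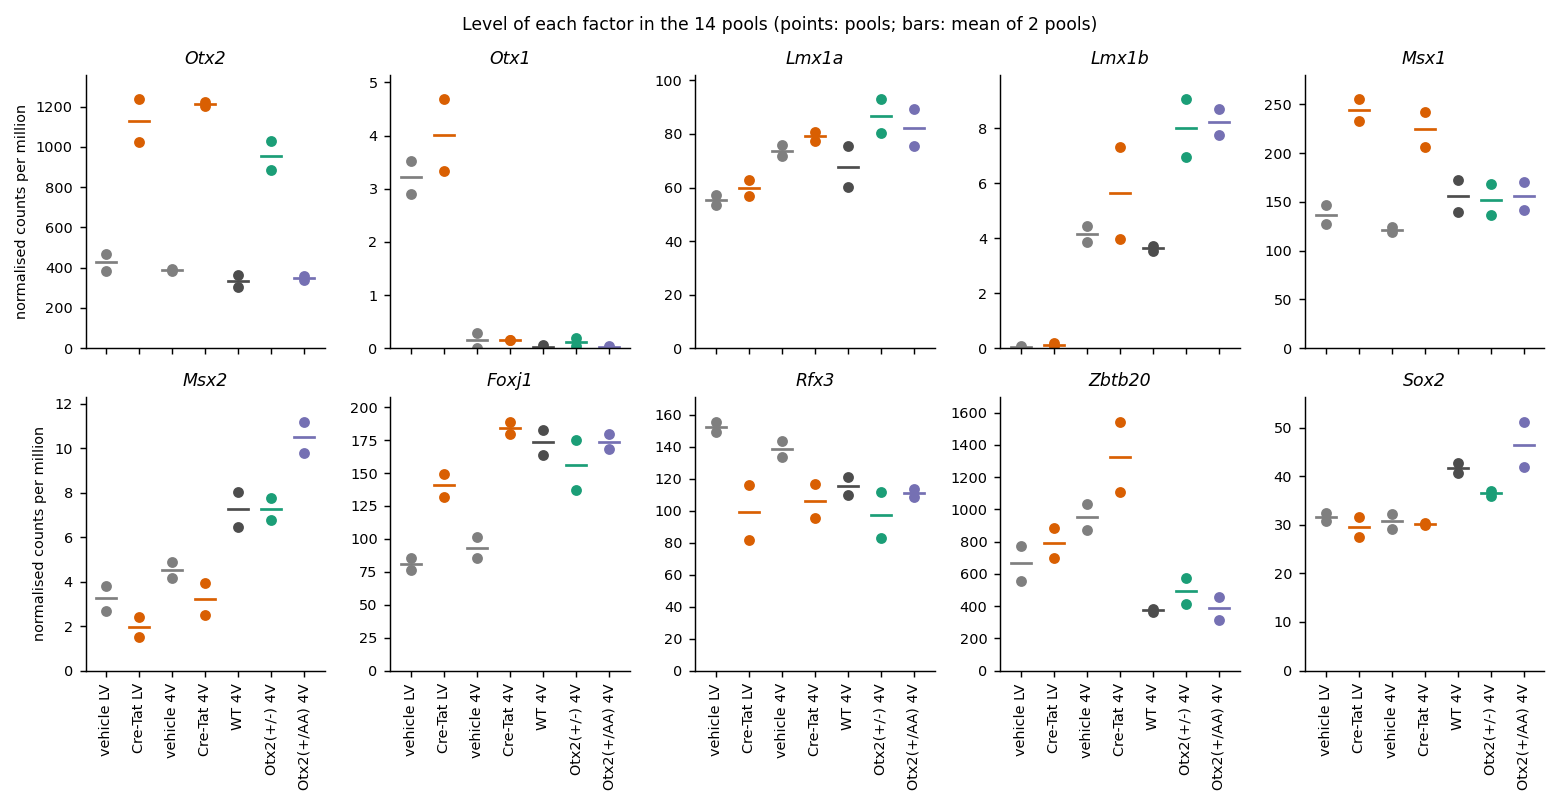
Normalised CPM of each factor (vertical axis, linear from 0, its own scale per gene) in the 7 groups; points are pools and bars are means of 2 pools. *Otx2* sits between 303.2 and 469.6 in the vehicle, WT and Otx2 (+/AA) pools and between 885.7 and 1235.9 in the Cre-Tat and Otx2 (+/-) pools, and *Otx1* and *Lmx1b* change places between LV and 4V.

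*Otx2* (chromosome 14, 48657677 to 48673819, minus strand) is the gene that both models target. The count over its whole transcript was higher, not lower, in the pools labelled as knockdown. In LV ChP it was 385.5 and 469.6 normalised CPM in the vehicle pools and 1235.9 and 1024.7 in the Cre-Tat pools. In 4V ChP it was 385.6 and 393.1 with vehicle and 1202.5 and 1222.5 with Cre-Tat. In the second model it was 361.4 and 303.2 in WT pools, 1027.3 and 885.7 in Otx2 (+/-) pools, and 339.0 and 356.5 in Otx2 (+/AA) pools. The groups labelled Cre-Tat or Otx2 (+/-) overlapped with none of the others, and the Otx2 (+/AA) pools lay within the range of WT. The study followed the knockdown on exon 2 of the gene and reported fewer exon 2 reads in Cre-Tat LV, Cre-Tat 4V and heterozygous 4V ChP. It also lists *Otx2* among the genes lower in both models. A count per transcript does not isolate an exon, so it does not test the deletion, and groups are called by their labels throughout.

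The rise of *Otx2* passed the threshold of 0.05 (edgeR quasi-likelihood test, Benjamini-Hochberg adjusted p over all genes tested) in each of these comparisons. It was 2.65-fold in LV ChP (log2 1.41, SE 0.18, adjusted p = 0.000507), 3.12-fold in 4V ChP (log2 1.64, SE 0.15, adjusted p = 1.15e-06) and 2.88-fold for Otx2 (+/-) against WT (log2 1.53, SE 0.14, adjusted p = 0.0011). Against Otx2 (+/AA), the Otx2 (+/-) pools were 2.76-fold higher (adjusted p = 0.0003). These last groups share pools with the other comparisons of the second model. Otx2 (+/AA) against WT gave log2 0.06 (interval of 1.96 SE, -0.21 to 0.32, adjusted p = 0.958 with edgeR). The rise did not differ detectably between ventricles (log2 difference 4V minus LV 0.23, -0.20 to 0.67) or between models in 4V ChP (0.10, -0.28 to 0.48).

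The gene has 8 transcripts in the tables, which share exons and therefore reads. All 8 rose with Cre-Tat, by log2 0.89 to 1.56 in LV ChP, where 2.46% of all transcripts passed, and by 1.16 to 1.71 in 4V ChP, where 7.59% did. In Otx2 (+/-) pools 7 of the 8 rose against WT (3.55% of all transcripts passed) and 7 of the 8 against Otx2 (+/AA) pools (1.74%). The exception was *Otx2-206*, a non-coding transcript that starts further 3′ and has its own first exon. Its level was 60.1 ± 7.63 normalised CPM in WT and 41.5 ± 8.38 in Otx2 (+/-) pools (log2 -0.52, SE 0.15, adjusted p = 0.0952 over all transcripts, edgeR), while it was 83.7 ± 6.87 and 155.1 ± 10.8 in vehicle and Cre-Tat LV pools. The size of the rise in Otx2 (+/-) pools ran from log2 0.67 for *Otx2-203*, which ends in the homeobox exon, to 1.54 for *Otx2-201*, which has the longest last exon. Relative to *Otx2-201* in the same pool, *Otx2-206* had 18.1% and 18% of its count in WT pools, 4.61% and 4.01% in Otx2 (+/-) pools, and 13.2% and 14.4% in Cre-Tat LV pools. With Cre-Tat, the share of *Otx2-203* was 14.6% and 15.1% against 12.7% and 13.8% with vehicle in LV ChP, and with Otx2 (+/-) it was 7.05% and 6.71% against 12.7% and 12.4% in WT. In Otx2 (+/AA) pools 0 of the 8 passed against WT (log2 -0.13 to 0.07, edgeR adjusted p = 0.908 or higher), where 0.236% of all transcripts did.

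**Figure D2:**
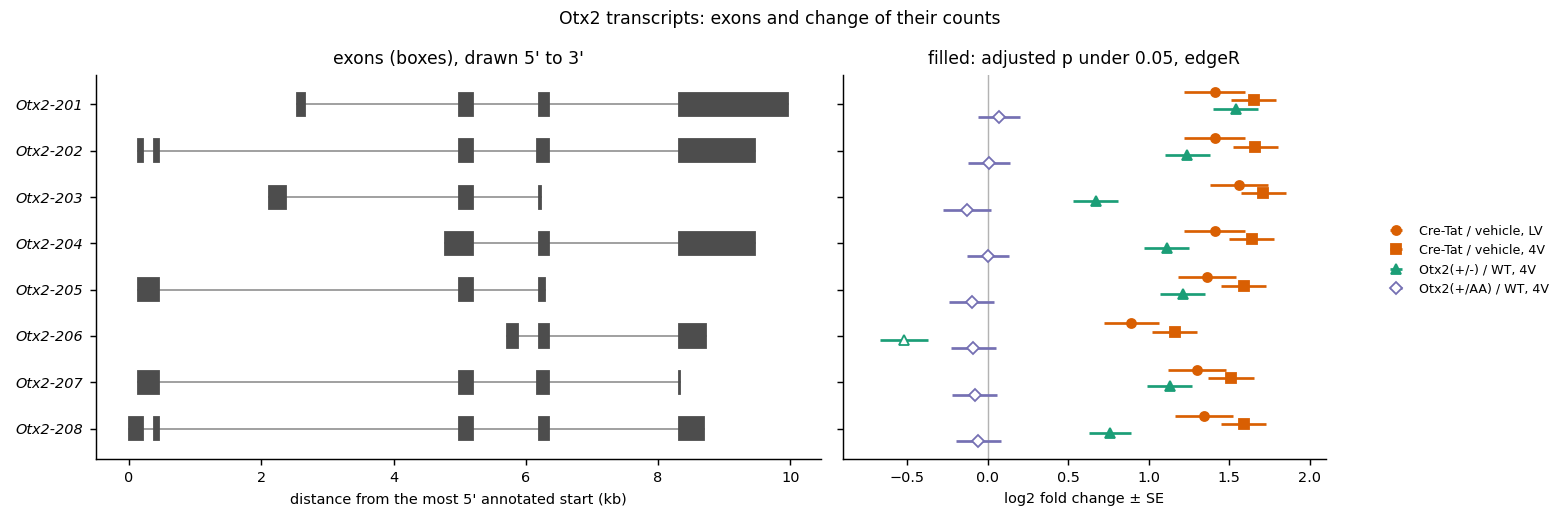
Exons of the 8 *Otx2* transcripts, drawn 5′ to 3′ as distance in kb from the most 5′ start (left), and the log2 fold change of each transcript's count with its SE (right; filled symbols passed an adjusted p of 0.05). The Cre-Tat symbols lie between 0.89 and 1.71 for every transcript, the Otx2 (+/-) symbols spread from -0.52 to 1.54, and the Otx2 (+/AA) symbols lie near 0.

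*Otx2-205* is wholly contained in *Otx2-207*, which adds 22, 59 and 24 bases, among them the capitals of the exon printed above. A read appears to be counted on each transcript it overlaps, since the longer of such nested transcripts never had the lower count in 97.8% of 16416 pairs over all genes. The count of *Otx2-207* minus that of *Otx2-205* therefore leaves reads that touch the added bases alone. In LV ChP this difference was 6.83 and 5.97 normalised CPM with vehicle and 7.07 and 5.73 with Cre-Tat. In 4V ChP it was 7.41 and 7.11 with vehicle and 4.72 and 4.99 with Cre-Tat, and in the second model it was 7.0 and 5.23 in WT, 4.80 and 3.24 in Otx2 (+/-) and 6.94 and 6.31 in Otx2 (+/AA) pools. The mean ratio was 1.0 in LV, 0.669 in 4V, 0.658 in Otx2 (+/-) and 1.08 in Otx2 (+/AA) pools, so these bases did not show the rise of the whole transcripts. It rests on 63 to 176 reads a pool. This was read from the data after *Otx2* was seen to rise and was not tested.

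With Cre-Tat, *Msx1* and *Foxj1* rose beside *Otx2* in both ventricles. Both ChPs were taken from the injected mice, so the ventricles are not independent repeats. *Msx1* (chromosome 5, 37820485 to 37824583, minus strand), a repressor induced by BMP signals, was 127.2 and 146.7 with vehicle and 232.8 and 254.9 with Cre-Tat in LV ChP. In 4V ChP it was 123.9 and 118.9 with vehicle and 242.2 and 206.6 with Cre-Tat. The rise was 1.78-fold in LV (log2 0.83, SE 0.16, adjusted p = 0.0118) and 1.85-fold in 4V ChP (log2 0.89, SE 0.14, adjusted p = 0.000346, both edgeR). *Foxj1* (chromosome 11, 116330704 to 116335399, minus strand), the main switch for motile cilia, was 76.5 and 85.6 with vehicle and 132.0 and 149.2 with Cre-Tat in LV ChP. In 4V ChP it was 101.5 and 85.3 with vehicle and 179.4 and 189.0 with Cre-Tat. It rose 1.74-fold in LV (log2 0.80, SE 0.16, adjusted p = 0.0152) and 1.98-fold in 4V ChP (log2 0.98, SE 0.14, adjusted p = 0.00013). No Cre-Tat pool overlapped with a vehicle pool for either gene. In LV ChP both calls were lost without vehicle pool A (adjusted p = 0.235 for *Msx1* and 0.247 for *Foxj1*), and that of *Foxj1* also without vehicle pool B (adjusted p = 0.069).

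These 3 factors were the members that passed, of 9 tested in each ventricle. In LV ChP 3.24% of all genes passed, and 2.21% passed as higher in the Cre-Tat pools. In 4V ChP the shares were 10.7% and 5.7%. The pools of the 2 groups did not overlap for 5 of the 9 in LV and 7 of the 9 in 4V ChP, where 42.5% and 50.4% of all genes tested did not overlap. The median log2 change of the 9 was 0.25 in LV and 0.45 in 4V ChP, beside 0.0 and 0.01 over all genes. In the test of the difference in response between ventricles, 0 of the 10 passed with edgeR, and their unadjusted p were 0.302 or higher. The fit did not pair LV pools with 4V pools. That comparison called 1 of 15565 genes (0.00642%), with 416 genes at an unadjusted p under 0.05, and 5 genes with DESeq2.

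The remaining factors did not pass with Cre-Tat. *Rfx3* (chromosome 19, 27761721 to 28011166, minus strand), which acts with FOXJ1 on cilia genes, had 155.7 and 149.4 with vehicle and 116.1 and 81.9 with Cre-Tat in LV ChP (log2 -0.62, SE 0.18, adjusted p = 0.0893). In 4V ChP it had 133.4 and 143.6 against 95.7 and 116.4 (log2 -0.38, SE 0.14, adjusted p = 0.0925). Its pools were lower with Cre-Tat without overlap in both ventricles, on the opposite side from *Foxj1*, and its side of the threshold depended on the processing. With all pools it passed in LV ChP with DESeq2 (adjusted p = 0.0328) and without the low-count filter (edgeR, 0.013). It also passed in LV ChP without Cre-Tat pool A (0.00845) and in 4V ChP without Cre-Tat pool B (0.0245). *Msx2* (chromosome 13, 53466884 to 53473074, minus strand), the close relative of *Msx1*, had 80 and 54 counts with vehicle and 38 and 53 with Cre-Tat in LV ChP. Its log2 change there was -0.72 (-1.41 to -0.03, edgeR unadjusted p = 0.0605 and adjusted p = 0.387). In 4V ChP its change was -0.49 (-1.07 to 0.08). *Zbtb20* (chromosome 16, 42875881 to 43642602, plus strand) had 874.9 and 1035.5 with vehicle and 1107.4 and 1544.1 with Cre-Tat in 4V ChP (log2 0.48, SE 0.18, adjusted p = 0.103). It passed there with total counts (0.61, adjusted p = 0.0226), without the low-count filter (0.48, adjusted p = 0.01) and without Cre-Tat pool A (adjusted p = 0.0018). *Sox2* (chromosome 3, 34650405 to 34652461, plus strand) had 27.4 to 32.4 in all 8 pools of the model, with a change of -0.09 (-0.41 to 0.23) in LV and -0.02 (-0.31 to 0.26) in 4V ChP. *Lmx1a* changed by 0.11 in both ventricles, with intervals of -0.20 to 0.42 and -0.15 to 0.36.

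Other genes moved with the Cre-Tat label as well. In bulk tissue, fewer cells of a type and less RNA per cell cannot be told apart. Of the 10 epithelial markers, 5 fell in LV ChP and all 10 in 4V ChP, and their summed level was 123233.7 and 164729.9 normalised CPM in the Cre-Tat LV pools and 98213.1 and 86983.8 against 219161.7 and 185434.4 (vehicle) in 4V ChP. *Ttr* made up most of each sum and was not among the 5 that fell in LV ChP. The 6 ependymal markers summed to 84.9 and 102.1 (vehicle) and 126.0 and 156.7 (Cre-Tat) in LV ChP. In 4V ChP they summed to 89.3 and 75.9 (vehicle) and 127.1 and 124.9 (Cre-Tat). *Dynlrb2* rose in both ventricles and *Cfap126* in 4V ChP, both of which code for parts of motile cilia, while *Ccdc153*, *Tmem212* and *Sntn* stayed at or under 1.7 in every pool of the model. The 6 immune markers summed to 39.2 and 44.3 (vehicle) and 99.5 and 77.6 (Cre-Tat) in LV ChP, where 3 of them rose, and to 36.5 and 34.1 and 88.2 and 63.1 in 4V ChP, where 4 rose. Of 5 astrocyte markers, 2 rose and 1 fell in each ventricle. Of 5 stromal markers, *Col1a2* rose (log2 1.64 in LV and 1.57 in 4V ChP) and *Pdgfra* fell (-0.87 and -1.33), and their sum was 578.4 and 609.7 (vehicle) and 546.8 and 552.4 (Cre-Tat) in LV ChP, and 483.1 and 508.2 and 476.1 and 431.0 in 4V ChP. Of 5 neuronal markers tested in LV ChP, *Snap25* alone passed, as higher (1.27). Neuronal *Syt1* had 11.6 and 12.9 (vehicle) and 9.92 and 9.73 (Cre-Tat) there. In 4V ChP *Syt1* alone of 3 neuronal markers tested passed, as lower (-0.77). Of 5 endothelial markers tested in 4V ChP, *Plvap* alone passed, as higher (0.70). The endothelial sums overlapped there, with 86.9 and 100.4 (vehicle) and 87.1 and 104.7 (Cre-Tat). The part of these cells in the rise of *Msx1* and *Foxj1* was not tested.

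**Figure D3:**
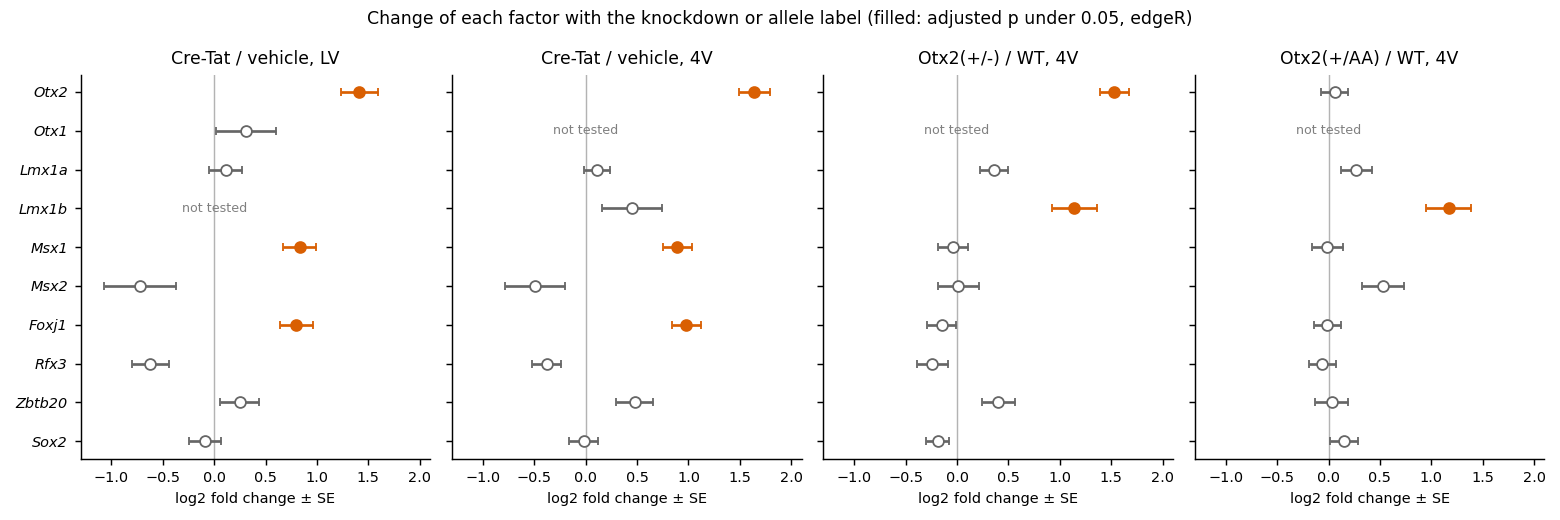
Log2 fold change of each factor (horizontal axis, with its SE) in the 4 comparisons by label, 2 pools a group; filled points passed an adjusted p of 0.05 with edgeR. *Otx2* is filled in 3 panels, *Msx1* and *Foxj1* in the Cre-Tat panels alone, and *Lmx1b* in both panels of the second model.

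In the second model, *Lmx1b* was the factor that changed beside *Otx2*. *Lmx1b* (chromosome 2, 33560965 to 33640511, minus strand) is a LIM-homeodomain factor of the roof plate and hindbrain. It had 71 and 63 counts in WT pools, 179 and 135 in Otx2 (+/-) pools, and 165 and 167 in Otx2 (+/AA) pools, which is 3.71 and 3.54, 9.04 and 6.94, and 7.74 and 8.71 normalised CPM. Both mutant groups lay above WT without overlap, and they overlapped with each other. The difference from WT was 2.2-fold for Otx2 (+/-) (log2 1.14, SE 0.22, adjusted p = 0.027) and 2.25-fold for Otx2 (+/AA) (log2 1.17, SE 0.22, adjusted p = 0.0453, both edgeR). The Otx2 (+/-) and Otx2 (+/AA) pools differed by log2 -0.04 (-0.43 to 0.36). Both comparisons use the same WT pools. Over the same groups, the 10 epithelial markers summed to 200108.4 and 189424.1 in WT, 125470.0 and 133371.9 in Otx2 (+/-) and 155245.1 and 158586.1 in Otx2 (+/AA) pools. *Ttr* made up most of each sum. It had 147829.2 and 139112.2 in WT, 76414.9 and 89894.7 in Otx2 (+/-) and 109501.7 and 115956.0 in Otx2 (+/AA) pools. Of the 10 markers, *Ttr*, *Prlr* and *Folr1* fell in Otx2 (+/-) pools, and 0 passed for Otx2 (+/AA) against WT. Among markers of other cells, *Aqp4* (astrocytes; 12.4 ± 0.042 in WT and 41.4 ± 7.83 in Otx2 (+/-) pools, adjusted p = 0.0011) and *Col1a2* (stroma; 76.8 ± 6.10 and 163.1 ± 6.14, adjusted p = 0.00184) rose. Each was the only 1 of 5 markers of its cell type to pass. The 5 astrocyte markers had a median log2 change of 0.69, but *Aldh1l1* had 123.4 and 110.4 in WT and 82.9 and 108.8 in Otx2 (+/-) pools. Their sums overlapped, with 165.4 and 156.3 in WT and 147.9 and 221.9 in Otx2 (+/-) pools. The 5 stromal markers summed to 771.6 and 691.1 in WT, 1055.4 and 948.4 in Otx2 (+/-) and 612.2 and 729.1 in Otx2 (+/AA) pools. The part of these markers in the values of *Lmx1b* was not tested. The first call was lost without Otx2 (+/-) pool A (adjusted p = 0.129) and with counts summed over transcripts (0.0507). The second was lost without Otx2 (+/AA) pool A (adjusted p = 0.0951) or pool B (0.111), with total counts (0.0519), with all groups of the run in the fit (0.0801) and with counts summed over transcripts (0.133).

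Of 9 factors tested, 2 passed for Otx2 (+/-) against WT, where 3.53% of all genes did. For Otx2 (+/AA) against WT 1 passed, where 0.345% of all genes did, and for Otx2 (+/-) against Otx2 (+/AA) 1 passed, where 2.7% did. The pools of the groups did not overlap for 5, 2 and 3 of the 9, beside 49.2%, 38.1% and 44.5% of all genes. The median log2 change of the 9 was 0.01, 0.06 and -0.04. *Msx1* had 140.0 and 172.6 in WT, 136.1 and 168.0 in Otx2 (+/-) and 141.8 and 170.1 in Otx2 (+/AA) pools, and the groups overlapped throughout. *Foxj1* had 163.9 and 182.8, 137.3 and 175.0, and 168.0 and 179.4. *Lmx1a* had 75.5 and 60.1 in WT, 92.9 and 80.4 in Otx2 (+/-) and 89.4 and 75.4 in Otx2 (+/AA) pools (log2 0.36, SE 0.14, adjusted p = 0.225 for Otx2 (+/-)). *Zbtb20* changed by log2 0.40 (0.08 to 0.72, adjusted p = 0.243, and 0.0179 without Otx2 (+/-) pool B) and *Sox2* by -0.19 (-0.41 to 0.03, adjusted p = 0.433) in Otx2 (+/-) pools. *Msx2* had 6.47 and 8.04 in WT and 11.2 and 9.81 in Otx2 (+/AA) pools (log2 0.53, SE 0.20, adjusted p = 0.413).

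The label effect on *Foxj1* and *Msx1* differed between the models in 4V ChP. For *Foxj1* the Cre-Tat change exceeded the Otx2 (+/-) change by 1.12 on the log2 scale (SE 0.20, adjusted p = 0.0148), from 0.98 and -0.15. For *Msx1* the difference was 0.92 (SE 0.21, adjusted p = 0.0457), from 0.89 and -0.04. These were 2 of 9 factors tested, in a comparison that called 1.64% of 15327 genes. *Foxj1* was lower in vehicle 4V than in WT 4V pools (93.4 ± 11.5 against 173.3 ± 13.4). Its Cre-Tat 4V pools (179.4 and 189.0) overlapped with the WT pools (163.9 and 182.8). These levels also differ in run and strain. The call of *Msx1* was lost without Cre-Tat pool A, Otx2 (+/-) pool A, vehicle pool A, vehicle pool B or WT pool B (adjusted p = 0.119 to 0.193), and with counts summed over transcripts (0.0824). That of *Foxj1* was lost without vehicle pool B (0.0948) or WT pool B (0.0573). Over the same groups, the 6 ependymal markers summed to 80.4 and 102.1 in Otx2 (+/-) and 81.6 and 92.1 in WT pools, and their part in the difference was not tested.

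Between ventricles, in vehicle pools, 2 of the factors were close to all or none. *Otx1* (chromosome 11, 21994764 to 22002897, minus strand), the paralog of *Otx2*, had 61 and 71 counts in LV and 4 and 0 in 4V ChP. Over the group this is a ratio of 19.6 (exact 95% counting interval 7.46 to 72.9; the fitted log2 difference was 4.24, SE 0.64, adjusted p = 0.00138). Cre-Tat pools had 83 and 102 in LV and 3 and 3 in 4V ChP, and the 6 pools of the second model had 0 to 4. The transcript with the most *Otx1* counts, *Otx1-203*, retains an intron. The coding *Otx1-201* showed the same side, with 2.86 ± 0.53 normalised CPM in LV and 0.0741 ± 0.105 in 4V ChP (adjusted p = 0.000152 over all transcripts, edgeR). *Lmx1b* had the opposite pattern, with 2 and 0 counts in LV and 52 and 48 in 4V ChP, a ratio of 84.3 (22.7 to 706, adjusted p = 8.04e-05). Cre-Tat LV pools had 2 and 4 counts and Cre-Tat 4V pools 73 and 145, so it was too low to be tested for Cre-Tat in LV ChP.

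*Lmx1a* (chromosome 1, 167689237 to 167848741, plus strand) differed far less than its paralog. It had 53.6 and 57.1 in vehicle LV and 71.8 and 75.8 in vehicle 4V pools, 1.34-fold higher in 4V ChP (log2 LV over 4V -0.42, SE 0.12, adjusted p = 0.0444, edgeR). Leaving out any of the 4 pools ended this call (adjusted p = 0.114 to 0.243), as did DESeq2 (0.0671), counts summed over transcripts (0.0828) and all groups of the run in the fit (0.1). Both ChPs were taken from the injected mice, but the sources used here do not say whether pools of the same letter hold the same mice. With the letter as a replicate block, the pairing gave *Lmx1a* the same difference with an adjusted p of 0.00589. *Zbtb20* had 771.1 and 557.1 in LV and 874.9 and 1035.5 in 4V pools (log2 -0.52, SE 0.16, adjusted p = 0.0646). It passed with the replicate block (log2 -0.54, adjusted p = 0.00201), with DESeq2 (0.0276), with total counts (0.0235), without the low-count filter (0.00215) and without vehicle LV pool A (0.00033). Of its 21 transcripts, 7 passed as lower in LV ChP, beside 5.76% of all transcripts that passed in either direction. The range of all 21 was log2 -1.34 to -0.31. They can share exons and therefore reads, so they are not independent. The largest of these differences was that of *Zbtb20-209*, with 7.02 and 1.64 normalised CPM in LV and 11.4 and 11.5 in 4V pools. Of these 7 calls, 5 held with DESeq2, 2 without vehicle 4V pool A, 1 without vehicle LV pool B and 0 without vehicle 4V pool B, while 18 of the 21 passed without vehicle LV pool A and 16 with the replicate block. The 26901-base *Zbtb20-204* that represents the gene was not among them (log2 -0.47, adjusted p = 0.0975). *Otx2* did not differ detectably between the vehicle ChPs (log2 0.13, -0.12 to 0.38), and *Msx1* (0.17), *Msx2* (-0.48), *Foxj1* (-0.21), *Rfx3* (0.14) and *Sox2* (0.04) did not pass. In all, 3 of 10 factors passed, where 7.44% of genes did, and 7 of 10 had no overlap, where 53.7% of genes had none. *Otx1* and *Lmx1b* met the low-count filter only through the ventricle where they were high, so these counts are descriptions and not support.

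**Figure D4:**
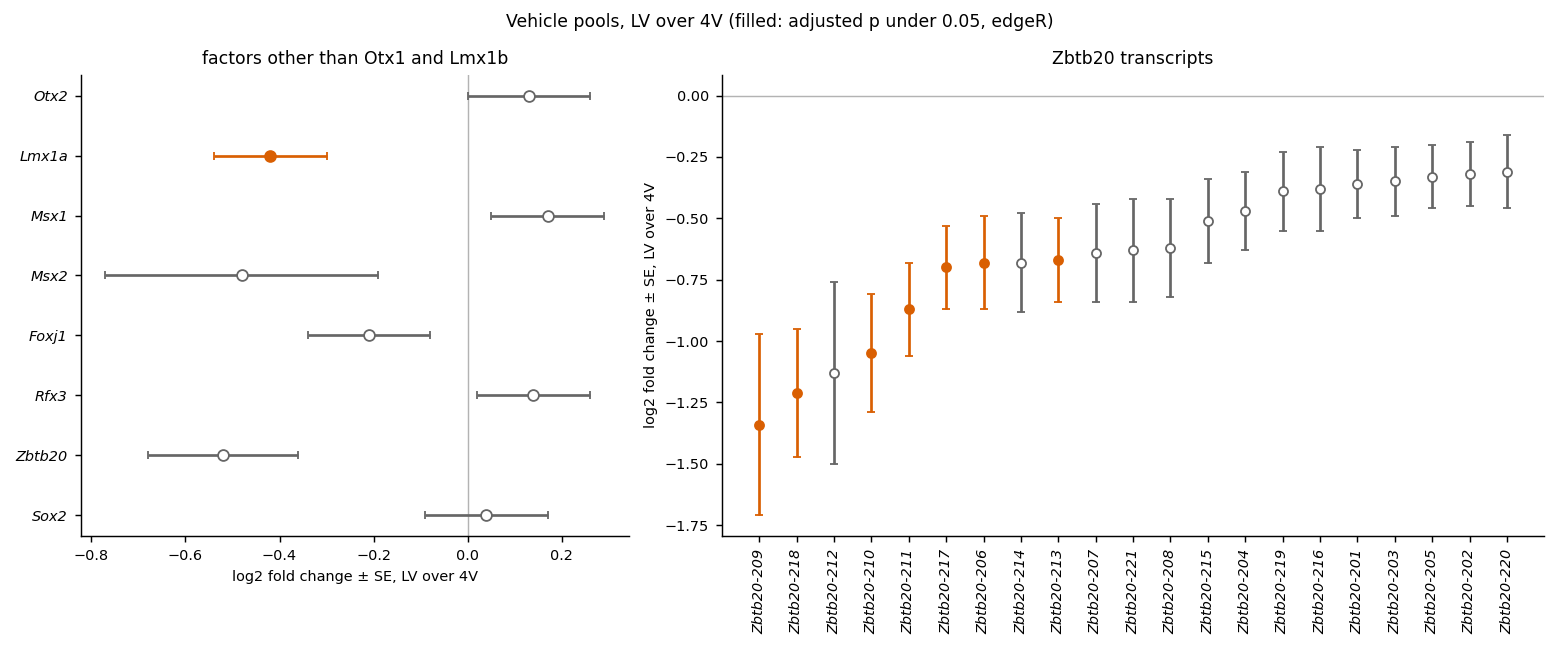
Log2 difference between vehicle LV and vehicle 4V pools with its SE, for 8 factors (left; *Otx1* and *Lmx1b* are off this scale) and for the 21 *Zbtb20* transcripts in order of size (right); filled points passed an adjusted p of 0.05 with edgeR. All *Zbtb20* points lie below 0, from -1.34 to -0.31, for transcripts that can share reads.

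The order of the groups differed from factor to factor. *Otx2* ran from Cre-Tat 4V (1212.5 ± 14.1 normalised CPM) over Cre-Tat LV (1130.3 ± 149.4) and Otx2 (+/-) (956.5 ± 100.1), whose pool ranges met, down to vehicle LV (427.6 ± 59.5), vehicle 4V (389.3 ± 5.28), Otx2 (+/AA) (347.8 ± 12.4) and WT (332.3 ± 41.2). *Lmx1a* was lowest in the LV groups (55.4 ± 2.48 with vehicle and 59.8 ± 4.16 with Cre-Tat, whose ranges met) and ran from 67.8 ± 10.9 to 86.6 ± 8.90 in the 5 groups of 4V ChP. *Zbtb20* was highest in Cre-Tat 4V (1325.7 ± 308.7) and had 374.5 ± 13.7 to 492.3 ± 114.9 in the second model. *Sox2* had 29.5 ± 2.92 to 31.6 ± 1.21 in the first model and 36.5 ± 0.699 to 46.5 ± 6.59 in the second. *Rfx3* was highest in vehicle LV (152.5 ± 4.49) and vehicle 4V (138.5 ± 7.27), and the ranges of the other 5 groups, from 97.1 to 115.2 on average, met one another in order.

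Related factors were followed in lists taken from general knowledge, also chosen with earlier results of these data known. For the first of them the median log2 change was 0.13 with Cre-Tat in LV ChP, 0.26 in 4V ChP and 0.31 for Otx2 (+/-). Among 28 dorsal midline and ChP development factors, 1 of 17 tested rose with Cre-Tat in LV ChP, *Hes1*, the Notch effector (24.6 ± 1.16 with vehicle, 42.2 ± 3.39 with Cre-Tat, adjusted p = 0.0176). Of all genes, 3.24% passed there and 2.21% as higher. In 4V ChP, where 10.7% of all genes passed and 5.7% as higher, 4 of 15 rose and 1 fell. Those with the largest changes were *Id2*, an inhibitor of bHLH factors (log2 0.90, adjusted p = 0.000876), the zinc finger gene *Zic2* (0.81, adjusted p = 0.00126) and *Hes1* (0.81, adjusted p = 0.000995). *Zic4*, a neighbour of *Zic1* in the genome, was 16.9 and 15.3 in WT, 43.7 and 38.4 in Otx2 (+/-) and 23.1 and 25 in Otx2 (+/AA) pools, and was the list's call for Otx2 (+/-) against WT (log2 1.35, SE 0.14, adjusted p = 0.00148) and against Otx2 (+/AA) (0.78, adjusted p = 0.0135). It was 1 of 15 tested in each, where 3.53% and 2.7% of all genes passed. Between vehicle ChPs, *Emx2* was higher in LV (at least 40.5-fold by the floor of 3 counts over the group) and *Id3*, a further inhibitor of bHLH factors, was higher in 4V ChP (log2 LV over 4V -0.66, adjusted p = 0.00382). Of 16 tested there, 1 passed as higher in LV and 5 as lower, beside 7.44% of all genes. The higher gene was *Emx2*, which met the low-count filter only through LV ChP, so its pass is a description and not support.

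In the motile cilia network, a list of 18 further genes, *Gmnc* was the gene that passed. With Cre-Tat in 4V ChP and between vehicle ChPs it was 1 of 13 tested, where 10.7% and 7.44% of all genes passed. GMNC acts upstream of FOXJ1 in multiciliated cells. It had 161.9 and 191.1 in vehicle 4V and 75.3 and 94.5 in Cre-Tat 4V pools (log2 -1.05, SE 0.15, adjusted p = 0.00011), a fall on the opposite side from *Foxj1*. It was 87.8 and 36.6 in vehicle LV pools, which were lower than vehicle 4V (log2 -1.50, adjusted p = 0.00541), and 36.1 and 28.7 against 48.0 and 34.9 in WT and Otx2 (+/-) pools. Its response also differed between the models (log2 -1.42, SE 0.25, adjusted p = 0.0128), as 1 of 14 tested, where 1.64% of all genes passed. The median log2 change of the list was 0.14 with Cre-Tat in LV ChP, 0.19 in 4V ChP and 0.15 for Otx2 (+/-), beside 0.0, 0.01 and 0.0 over all genes.

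Of 23 OTX-class and partner factors, 10 were tested between vehicle ChPs, where 1 passed as higher in LV and 2 as lower, beside 7.44% of all genes. *Six3*, a forebrain homeobox gene, had 24 and 18 counts in LV and 0 in 4V ChP, at least 8.3-fold by the same floor. It was the higher gene and met the low-count filter only through LV ChP, so its pass is a description and not support. The TALE homeobox genes *Meis1* (2.15 and 0.696 in LV, 18.8 and 18.9 in 4V ChP, adjusted p = 1.95e-05) and *Meis2* (2.58 and 1.34, 11.4 and 10.9, adjusted p = 0.000141) were higher in 4V. With Cre-Tat, the corepressor gene *Tle1* fell in 4V ChP (log2 -0.56, adjusted p = 0.00975), alone among 8 tested, where 10.7% of all genes passed. In the SOX family, *Sox12* (log2 -0.76, adjusted p = 0.0278) and *Sox4* (-0.63, adjusted p = 0.0483) fell with Cre-Tat in 4V ChP, of 8 tested (10.7% of all genes passed), and *Sox8*, a gene of the oligodendrocyte lineage, was higher in vehicle LV than 4V, of 9 tested (7.44% of all genes passed; log2 1.62, adjusted p = 0.0362). Of the 3 oligodendrocyte markers tested there 1 was higher in LV, and their part in it was not tested. In the BTB zinc finger family, *Zbtb7a* (log2 0.55, adjusted p = 0.0257) and *Zbtb38* (0.45, adjusted p = 0.037) rose in 4V ChP, of 12 tested, beside 5.7% of all genes that passed as higher. *Zbtb16* passed between Otx2 (+/-) and Otx2 (+/AA) (adjusted p = 0.0413), with pools that did not agree (33.5 and 3.96 against 2.77 and 1.88; WT 31.6 and 2.7). It was 1 of 12 tested, where 2.7% of all genes passed.

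The genes most like *Otx2* over the 14 pools, by the Pearson correlation of log2 levels centred on each run, were *Fgf1* (r = 0.972), *Nceh1* (0.971), *Eva1a* (0.970), *Fmod* (0.964) and *Col11a1* (0.964), among 13439 genes. FGF1 is a growth factor, NCEH1 a cholesterol ester hydrolase, and FMOD and COL11A1 are matrix proteins. *Fgf1* had 8.41 and 13.4 in vehicle LV and 45.5 and 40.8 in Cre-Tat LV pools. It had 8.14 and 10.2 in WT, 30.2 and 31.2 in Otx2 (+/-) and 9.7 and 13 in Otx2 (+/AA) pools. *Fmod* had 16.1 and 21.9 in vehicle 4V and 505.0 and 638.3 in Cre-Tat 4V pools. The most opposed genes were *Tbcd* (r = -0.973), *Nqo1* (-0.972) and *Pgm1* (-0.956). Among the other factors, *Msx1* reached 0.685, *Foxj1* 0.602 and *Zbtb20* 0.500, *Rfx3* -0.706, *Msx2* -0.573 and *Sox2* -0.523. The 14 points share 7 groups, 2 runs and their controls, so these values describe the pattern and carry no test.

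**Figure D5:**
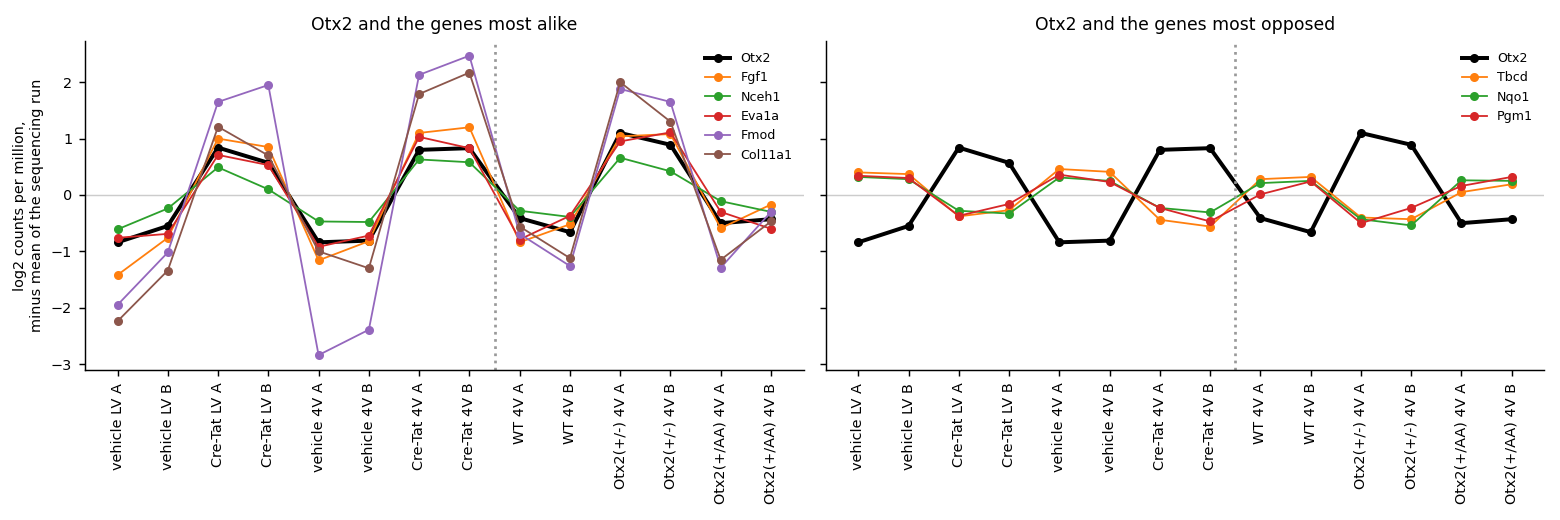
Log2 normalised CPM minus the mean of the sequencing run (vertical axis) for *Otx2* (black) and the 5 genes most alike (left) or the 3 most opposed (right), over the 14 pools; the dotted line parts the runs. The alike genes are high in the Cre-Tat and Otx2 (+/-) pools and low in vehicle, WT and Otx2 (+/AA) pools, and the opposed genes run the other way.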

How the data were processed

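Per the labels, RNA of pooled ChP was depleted of ribosomal RNA, made into strand-specific libraries and read over 50 bases; the study's methods name PolyA+ purification instead. The submitters' processing notes name Bowtie 0.12.9, SAMtools, HTSeq 0.5.3 and DESeq 1.8.3 and the build mm10. The strand setting of the counting is not given in the sources used here. The authors deposited raw counts per Ensembl transcript (unit: counts, not normalised) in 22 files of 11253762 to 43790479 counts. Of 95533 transcripts, 82807 matched GENCODE release 21 of the mouse, with 89.5% of the counts, and 12726 did not and were left out.

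In the first model 2 runs of each pool were summed, joined by the library number in the labels. The most counted transcript of each gene stood for it. Genes passing filterByExpr were tested with edgeR 4.0.16 (glmQLFit, glmQLFTest, TMM; R 4.3.3) on the groups compared, with Benjamini-Hochberg adjustment over all genes and a threshold of 0.05. The scripts were tested on simulated data with known changes. Of 2-fold changes, 64.2% were recovered for Cre-Tat LV, 28.4% for the ventricle difference and 28.4% for the model difference. Of the calls, 8.33%, 11.3% and 14.9% were false in that order. Levels are CPM on 1 TMM scale over the 14 pools. Intervals are 1.96 SE, a nominal 95% level. They are narrower than the edgeR test allows with so few pools. For *Msx2* in LV ChP the interval left out 0 although the unadjusted p was 0.0605 (edgeR). Counting intervals and the floor of 3 counts cover counting error only. The p-values judge a difference against the spread between pools, not between single mice. With 2 pools a group, edgeR takes part of that spread from the other genes. A group left with 1 pool has no spread of its own.

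Members and gene lists were chosen with earlier results of these data known. Named genes were all 10 members, at most 3 passing genes per list and comparison by size, and the 5 highest and 3 lowest correlations with *Otx2* (mean CPM of at least 1). A result that falls under this rule is not reported here. Alternatives were DESeq2 1.42.0, its size factors, total counts, no low-count filter, summed transcripts, all groups of a run, a replicate block, files as attached and each pool left out. Python 3.11.15, pandas 2.3.3, NumPy 2.4.6, SciPy 1.17.1 and matplotlib 3.10.9 were used.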

Additional observations from a re-analysis of the deposited data

Results flagged for a closer look

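*Foxj1* and *Msx1* stood out because the change with the label differed between the models in 4V ChP by an interaction term (edgeR, adjusted p over all genes). The Cre-Tat change minus the Otx2 (+/-) change was 1.12 on the log2 scale for *Foxj1* (SE 0.20, adjusted p = 0.0148) and 0.92 for *Msx1* (SE 0.21, adjusted p = 0.0457). Both Cre-Tat pools were above both vehicle pools for each gene, while the Otx2 (+/-) and WT pools overlapped. Leaving out 1 pool at a time gave 0.96 to 1.30 for *Foxj1*, whose call was lost without vehicle pool B or WT pool B, and 0.76 to 1.07 for *Msx1*, whose call was lost without vehicle pool A or B, Cre-Tat pool A, Otx2 (+/-) pool A or WT pool B, and with counts summed over transcripts (adjusted p = 0.0824). Model, strain and sequencing run cannot be told apart.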

How the results depend on the processing

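The rise of *Otx2* passed in every alternative except the files as attached, with log2 1.26 to 1.58 for Cre-Tat in LV, 1.60 to 1.78 in 4V, 1.19 to 1.66 for Otx2 (+/-) against WT and 1.20 to 1.57 against Otx2 (+/AA). Between vehicle ChPs, *Otx1* (log2 3.41 to 8.8) and *Lmx1b* (-8.95 to -5.3) kept their side in each of those. Both met the low-count filter only through the ventricle where they were high, so this is a description and not support.

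With the files as attached, members passing numbered 6 (Cre-Tat LV), 9 (Cre-Tat 4V), 5 (vehicle LV against 4V), 4 (ventricle difference) and 4 (model difference). Genes passing were 6709, 8742, 4718, 5258 and 4688 in that order, and transcripts of members 38, 42 and 24 in the first 3. Signs turned for LV *Otx2* (-0.01), *Lmx1a* (-0.44), *Msx1* (-0.05), *Foxj1* (-0.45), *Rfx3* (0.27) and *Zbtb20* (-0.28), and for 4V *Otx2* (-0.29), *Lmx1a* (-0.39), *Lmx1b* (-5.94), *Foxj1* (-0.36) and *Zbtb20* (-1.11). They also turned between vehicle ChPs for *Otx2* (-0.11) and *Rfx3* (-0.16), in the ventricle difference for *Otx2* (-0.27), *Rfx3* (-0.40) and *Zbtb20* (-0.83), and in the model difference for *Otx2* (-1.83), *Foxj1* (-0.22) and *Zbtb20* (-1.52). That grouping mixes libraries of different groups by its construction.

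Without the low-count filter, genes passing were 874 (Cre-Tat LV), 390 (Otx2 (+/AA) against WT), 1840 (vehicle ChPs), 31 (ventricle difference) and 627 (model difference), and member transcripts 16 (Cre-Tat 4V) and 18 (vehicle ChPs). With summed transcripts, members were 1 (Otx2 (+/-)), 0 (Otx2 (+/AA)) and 1 (model difference), and genes 22 (Otx2 (+/AA)), 248 (Otx2 (+/-) against Otx2 (+/AA)), 0 (ventricle difference; 521 at an unadjusted p under 0.05) and 166 (model difference). With all groups of a run, Otx2 (+/AA) gave 0 members, 18 genes and 0 member transcripts, and the vehicle ChPs 717 genes. DESeq2 gave 122 genes (Otx2 (+/AA)), 5 (ventricle difference) and 5 member transcripts (vehicle ChPs), with no adjusted p for the 3 transcripts of *Otx1* and *Lmx1b*. Total counts gave 0 members for Otx2 (+/AA), and 19 (Cre-Tat 4V) and 20 (vehicle ChPs) member transcripts. That scaling moved the median log2 change by 0.17 (Cre-Tat LV), 0.14 (Cre-Tat 4V), 0.12 (Otx2 (+/AA)), -0.19 (vehicle ChPs) and 0.12 (model difference). Calls that were higher went from 68.1% to 89.2%, 53.3% to 75.5%, 50.0% to 73.7%, 46.5% to 17.1% and 47.6% to 64.0% in that order, and from 50.6% to 38.4% for Otx2 (+/-) against Otx2 (+/AA). The cause of these shifts was not tested.

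With a replicate block on the pool letter, members were 5 (Cre-Tat 4V) and 4 (Otx2 (+/-)), and genes 3114 (Cre-Tat 4V), 2539 (Otx2 (+/-)), 549 (Otx2 (+/AA)), 2288 (vehicle ChPs), 2 (ventricle difference) and 1048 (model difference). Member transcripts were 28, 19 and 21 for Cre-Tat 4V, Otx2 (+/-) and the vehicle ChPs. Members that came to pass under it were *Rfx3* (-0.39, adjusted p = 0.000467) and *Zbtb20* (0.46, adjusted p = 2.72e-05) for Cre-Tat 4V, *Lmx1a* (0.36, adjusted p = 0.00816) and *Zbtb20* (0.38, adjusted p = 0.0125) for Otx2 (+/-), and *Zbtb20* for the vehicle ChPs. Nothing in the labels says that letters pair pools, and deviations of pools with the same letter correlated at -0.18 (Cre-Tat LV) to 0.41 (Otx2 (+/-)). A crossed block for LV, chosen after seeing the data, gave 1012 genes, and *Rfx3* passed (-0.64, adjusted p = 0.00464).

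Leaving out 1 pool at a time gave these ranges of members, genes and member transcripts: 1 to 4, 321 to 737 and 9 to 12 (Cre-Tat LV); 3 to 4, 905 to 1665 and 10 to 24 (Cre-Tat 4V); 1 to 3, 402 to 881 and 8 to 14 (Otx2 (+/-)); 0 to 1, 35 to 382 and 1 to 1 (Otx2 (+/AA)); 1 to 1, 403 to 790 and 5 to 8 (Otx2 (+/-) against Otx2 (+/AA)); 2 to 3, 400 to 1968 and 3 to 22 (vehicle ChPs). They were 0 to 0 members and 0 to 3 genes for the ventricle difference, and 0 to 2 and 80 to 246 for the model difference. Among member values that did not pass, 46 changed sign when a pool was left out and 19 under another setting. *Otx1* in 4V and *Lmx1b* in LV ChP had 0 to 4 counts a pool, which leaves their ratios with wide intervals.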
